A study of Mus musculus with 2 samples.

Results

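The genes described here are 33 components of the machinery that brings secretory proteins into the endoplasmic reticulum (ER), cleaves their signal peptides, attaches N-glycans and gathers cargo for export, out of 27998 genes in the deposited list. They were chosen by name and function, with earlier results of these data known. They comprise 6 genes of the signal recognition particle (SRP), 2 of its receptor, 6 of the translocon and its partners, 4 of the translocon-associated protein (TRAP) complex, 5 of signal peptidase, 7 of the oligosaccharyltransferase (OST) and 3 p24 cargo receptors.

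The study measured RNA of pancreatic islets from male mice aged 8 weeks and fasted 12 hours, in single cells, with the 10x Genomics 3′ v2 kit. One library came from miR-203 transgenic (TG) mice, whose transgene the labels place in beta cells, and the other from wild-type (WT) mice, and the labels do not say how many animals each holds. The copy of the TG matrix used here held only its first entries, so nearly all values come from the WT library. The preparation text in the labels also describes sorted intestinal goblet cells, but 4 goblet markers summed to 2.25 to 16.2 CPM (UMIs per 1000000 non-hormone UMIs) in the hormone cells and Muc2 was at 0 in alpha, delta and PP cells.

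Insulin is made as preproinsulin on ribosomes at the ER membrane. SRP binds the emerging signal peptide and docks at its receptor, the Sec61 channel passes the chain into the lumen with the help of TRAP, and signal peptidase removes the signal peptide. Insulin itself carries no N-glycan, while many granule and surface proteins of islet cells are glycosylated by OST, and p24 proteins recruit cargo to transport vesicles.

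The WT library held 118523180 UMIs (unique molecular identifiers, 1 for each captured transcript). Barcodes of at least 500 genes above a UMI limit were taken as cells, 4547 in all, of which the smallest held 5641 UMIs, with a median of 21643 UMIs and 3406 genes. Beta cells (Ins1 and Ins2 at least 30% of UMIs) numbered 3258, alpha cells (Gcg at least 8%) 423, delta cells (Sst at least 3%) 137 and PP cells (Ppy at least 8%) 117. A further 63 barcodes met several limits and 549 met none. Beta markers other than hormones, such as Slc2a2 and Ucn3, summed to 3456 CPM in beta cells, against 567 in alpha, 408 in delta and 585 in PP cells. Red cell genes reached 4534 CPM in PP cells, against 35.0 to 46.3 in the other hormone groups.

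Values are on a pair of scales. A level, in CPM, is the number of UMIs of a gene per 1000000 UMIs outside 8 hormone genes, because hormones took 56.7% of UMIs in beta cells. A ratio is the log2 of 2 such levels minus that of the median gene among those reaching 20 CPM on either side. Members beyond 1.5-fold are counted against the share of all genes that passed the same limit. Each group is 1 library, so no test was possible. Intervals are exact 95% intervals (Poisson for levels, conditional binomial for ratios) and cover counting error only. The 3′ protocol yields 1 tag per transcript, so levels are not scaled by length, and orders between genes also depend on how well each 3′ end is captured.

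Promoters of 24 of the 33 members were in the RefSeq table (build GRCm38.p6), and the 250 bases before each start were searched on both strands. The ER stress elements ERSE (CCAAT, any 9 bases, CCACG) and ERSE-II (ATTGG, any base, CCACG) and the UPRE core (TGACGTGG) were found in 0 of 24 members. They were found in 0.130%, 0.037% and 0.603% of 27025 genes. At such low shares 0 is the likely count for any 24 genes, so the search cannot show that members lack these elements. The simple CCAAT box, part of ERSE, was found in 12 of 24 members (50%) and in 37.5% of all genes. The GC box GGGCGG was found in 13 of 24 (54.2%) and in 35.4% of all genes. A match describes letters, not binding. The 120 bases before the start are printed for 4 OST genes that were higher (Dad1, Ddost) or not higher (Stt3a, Stt3b) in beta cells of high insulin share, with CCAAT and GGGCGG on either strand in capitals.
Dad1 (chr14:54253930-54254049, minus strand): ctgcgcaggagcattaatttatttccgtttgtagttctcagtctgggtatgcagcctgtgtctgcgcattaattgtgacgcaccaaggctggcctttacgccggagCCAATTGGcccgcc
Ddost (chr4:138304618-138304737, plus strand): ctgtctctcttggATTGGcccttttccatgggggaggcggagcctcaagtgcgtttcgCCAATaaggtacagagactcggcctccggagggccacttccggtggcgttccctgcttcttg
Stt3a (chr9:36767623-36767742, minus strand): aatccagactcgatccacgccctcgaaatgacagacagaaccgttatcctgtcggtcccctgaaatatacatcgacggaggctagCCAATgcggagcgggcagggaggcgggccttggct
Stt3b (chr9:115310469-115310588, minus strand): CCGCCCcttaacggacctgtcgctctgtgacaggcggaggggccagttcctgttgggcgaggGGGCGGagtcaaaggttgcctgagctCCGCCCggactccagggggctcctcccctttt
Dad1 and Ddost each held 2 CCAAT matches, overlapping on opposite strands in Dad1, and no GC box in these windows. Stt3a held 1 CCAAT match, and Stt3b held 3 GC boxes and no CCAAT match. Over the 250 bases, Dad1, Ddost and Stt3b each held both a CCAAT box and a GC box, and Stt3a only a CCAAT box. In windows of 120 bases not printed here, Rpn1, which was not higher (-0.08), held 1 CCAAT match and no GC box. Rpn2 held 1 CCAAT match and 2 GC boxes before 1 start, and 0 of either before another. All starts are those of RefSeq. In GENCODE M21 the Dad1 gene reaches to position 54254104, so its printed window lies inside the gene. The Stt3a gene reaches to 36767679 and the Ddost gene begins at 138304730, so their printed windows lie partly inside. Which start the islet cells use was not tested.

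Together the members made up 0.973% of non-hormone UMIs in cells. Their summed level was 10427 CPM (10394 to 10461) in beta cells, against 8091 (8012 to 8171) in alpha, 8556 (8391 to 8723) in delta and 10012 (9848 to 10178) in PP cells. Beta and PP cells thus lay above alpha and delta cells. Free RNA, as read in droplets of at most 200 UMIs, gave 9107 CPM (9027 to 9187). The bound on free RNA came from a foreign hormone in each group, Gcg in beta cells and Ins1 in the others. By this bound free RNA made up at most 9.65% of UMIs in beta, 8.93% in alpha, 14.8% in delta and 14.4% in PP cells.

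In plain levels, 21 of the 32 detected members were highest in beta cells, 10 of them with an interval apart from the next group. In alpha cells 22 were lowest, 10 with an interval apart. How many of all genes show the same order was not computed, so these counts do not set the members apart from other genes. A level is a share of the same total, of which cytosolic ribosomal proteins took 156705 CPM in beta cells, against 279318 in alpha cells. The median gene lay at log2 0.36 in beta over alpha cells, 0.02 over delta cells and 0.11 over PP cells. Relative to the median gene, the summed members differed by 0.01 over alpha, 0.27 over delta and -0.05 over PP cells.

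**Figure D1:**
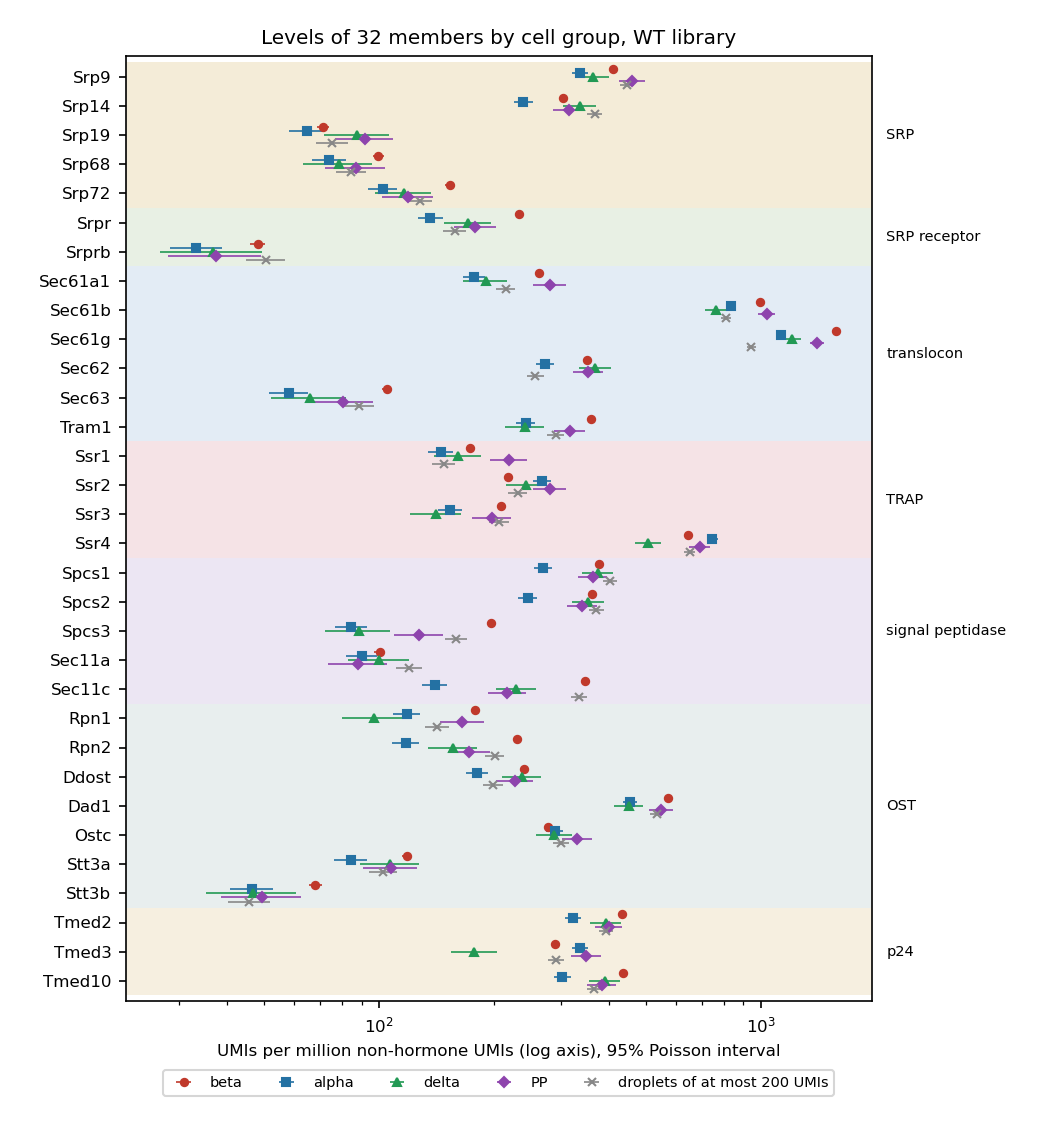
Levels of the 32 detected members, in CPM of non-hormone UMIs on a log axis, in beta, alpha, delta and PP cells and in droplets of at most 200 UMIs, with exact 95% Poisson intervals. Sec61g and Sec61b are at the high end and Srprb at the low end in each hormone group.

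The SRP is the RNA-protein particle that recognises signal peptides. Srp9, which with Srp14 forms its Alu domain, stood at 409 CPM in beta cells, 335 in alpha, 364 in delta and 460 in PP cells. Srp72, a scaffold protein of the particle that pairs with Srp68, stood at 153 CPM in beta cells, 102 in alpha, 116 in delta and 119 in PP cells. Srp72 was the highest in beta cells with its interval apart, whereas Srp9 was highest in PP cells. Srp19, an assembly factor of the particle, had the lowest ratio of all members over PP cells at -0.48 (-0.73 to -0.21), with 71.3 CPM in beta and 91.8 in PP cells. It also had the lowest ratio over delta cells, -0.31 (-0.60 to -0.02).

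Srp54a, the GTPase subunit that binds the signal peptide, had 0 UMIs in every group. A count of 0 allows up to 0.0832 CPM in beta cells (3 counts). The gene has adjacent copies on chromosome 12, and the row that the files name Srp54b held 284 CPM in beta cells, 174 in alpha, 256 in delta and 213 in PP cells. Its identifier carries the name Srp54c in GENCODE M21, so which copy the UMIs come from is uncertain. The other 32 members were measured in each contrast.

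The SRP receptor anchors the particle at the ER membrane. Its alpha subunit Srpr stood at 233 CPM in beta cells, 136 in alpha, 171 in delta and 179 in PP cells, highest in beta cells with an interval apart. The beta subunit Srprb was the lowest detected member, with 48.0 CPM in beta, 33.2 in alpha, 36.7 in delta and 37.4 in PP cells. It overlaps the gene Gm20425 on the same strand.

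The translocon held the most abundant members. Sec61g, the small gamma subunit of the channel, stood at 1575 CPM in beta cells, 1129 in alpha, 1206 in delta and 1404 in PP cells. Sec61b, the beta subunit, stood at 995 CPM in beta cells, 837 in alpha, 763 in delta and 1037 in PP cells. A stretch of 298 bases at its 3′ end is 98.3% identical to Gm10320, so its count is uncertain. The channel-forming subunit Sec61a1 stood lower, at 263 CPM in beta and 280 in PP cells, against 178 in alpha and 190 in delta cells. Sec63, a partner of the channel that recruits the lumenal chaperone BiP, stood at 105 CPM in beta cells and 65.9 in delta cells, a ratio of 0.65 (0.33 to 0.99). Tram1, a membrane protein beside the channel, stood at 359.7 CPM in beta cells, 243 in alpha, 241 in delta and 316 in PP cells, highest in beta cells with an interval apart.

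TRAP assists the entry of some chains and is known to be needed for normal insulin production. Ssr2, its beta subunit, was the only member more than 1.5-fold below the median gene in any of the 3 contrasts. Other settings gave 0 to 3 such members over alpha cells, where 15.2% to 24.9% of all genes were lower. Ssr2 stood at 218 CPM in beta cells, 268 in alpha, 242 in delta and 280 in PP cells. Its ratios were -0.65 (-0.74 to -0.57) over alpha, -0.17 (-0.34 to 0.01) over delta and -0.47 (-0.62 to -0.32) over PP cells. Ssr4, the delta subunit, stood at 644 CPM in beta and 746 in alpha cells, a ratio of -0.57 (-0.62 to -0.52) just inside the limit. Ssr1, the alpha subunit, stood at 174 CPM in beta and 219 in PP cells, a ratio of -0.45 (-0.61 to -0.28). All 4 TRAP genes were below the median gene over PP cells, with a median of -0.33.

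Signal peptidase held the highest ratios. Sec11c, 1 of its 2 alternative catalytic subunits, stood at 345 CPM in beta cells, 140 in alpha, 229 in delta and 217 in PP cells. Its ratio was 0.94 (0.83 to 1.06) over alpha, 0.58 over delta, just inside the limit, and 0.56 (0.40 to 0.73) over PP cells. The other catalytic subunit Sec11a differed little, with 100.3 CPM in beta, 89.9 in alpha, 100.1 in delta and 88.2 in PP cells, although it overlaps Nmb on the same strand. Sec11c therefore took 77.5% (76.8 to 78.1) of the UMIs of the pair in beta cells, against 60.9% (58.0 to 63.7) in alpha, 69.5% (64.7 to 74.0) in delta and 71.1% (66.5 to 75.3) in PP cells. Spcs3, an accessory subunit needed for activity, stood at 196 CPM in beta cells, 84.5 in alpha, 88.4 in delta and 127 in PP cells. The ratio of Spcs3 was 0.86 (0.72 to 1.00) over alpha, 1.13 (0.86 to 1.42) over delta and 0.52 (0.30 to 0.74) over PP cells. The 2 other accessory subunits, Spcs1 and Spcs2, had ratios of 0.13 and 0.20 over alpha, -0.01 and 0.02 over delta, and -0.06 and -0.02 over PP cells.

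OST transfers the glycan to asparagine. Rpn2, a structural subunit, stood at 230 CPM in beta and 118 in alpha cells, a ratio of 0.61 (0.49 to 0.74). Rpn1, which holds substrates at the complex, stood at 178 CPM in beta and 96.7 in delta cells, a ratio of 0.86 (0.60 to 1.14). Stt3a and Stt3b are alternative catalytic subunits, the first acting on chains as they enter through the channel and the second also on completed chains. Stt3b stood at 68.1 CPM in beta cells, 46.4 in alpha, 46.7 in delta and 49.4 in PP cells, and Stt3a at 118 in beta, 84.3 in alpha, 107 in delta and 107 in PP cells. Stt3a took 63.5% (62.3 to 64.6) of the UMIs of the pair in beta cells, 64.5% in alpha, 69.6% in delta and 68.5% in PP cells. Ostc, a subunit of the Stt3a form, was below the median gene in all 3 contrasts.

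Of the p24 proteins, which cycle between ER and Golgi, Tmed2 and Tmed10 differed by at most 0.17 in beta over alpha, delta or PP cells. Tmed3 stood at 290 CPM in beta cells, 337 in alpha, 178 in delta and 349 in PP cells. Its ratio was -0.57 (-0.65 to -0.50) over alpha and 0.69 (0.49 to 0.89) over delta cells, so delta cells stood apart at the low end.

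Counted over all members, 3 of 32 were above the limit in beta over alpha cells (Sec11c, Spcs3 and Rpn2), where 17.2% of 6707 genes were. Below the limit lay 1 (Ssr2), where 15.5% of genes were. In beta over delta cells 4 were above (Spcs3, Rpn1, Tmed3 and Sec63; 18.0% of genes) and 0 below (17.0%). In beta over PP cells 0 were above (15.9%) and 0 below (14.5%). At these settings the members passed the limit no more often than genes at large. Over delta cells that depended on the setting: 9 of 32 members were above with all UMIs as denominator (15.3% of genes), 7 in cells of at least 10000 UMIs (17.7%) and 8 with free RNA taken off (20.4%), but 2 without a floor (33.9%). No member was above the limit in all 3 contrasts, which share the beta cells. The ER chaperones moved otherwise, with 8 of 14 above the limit over alpha cells and a summed level of 12356 CPM in beta cells, against 6333 in alpha cells.

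**Figure D2:**
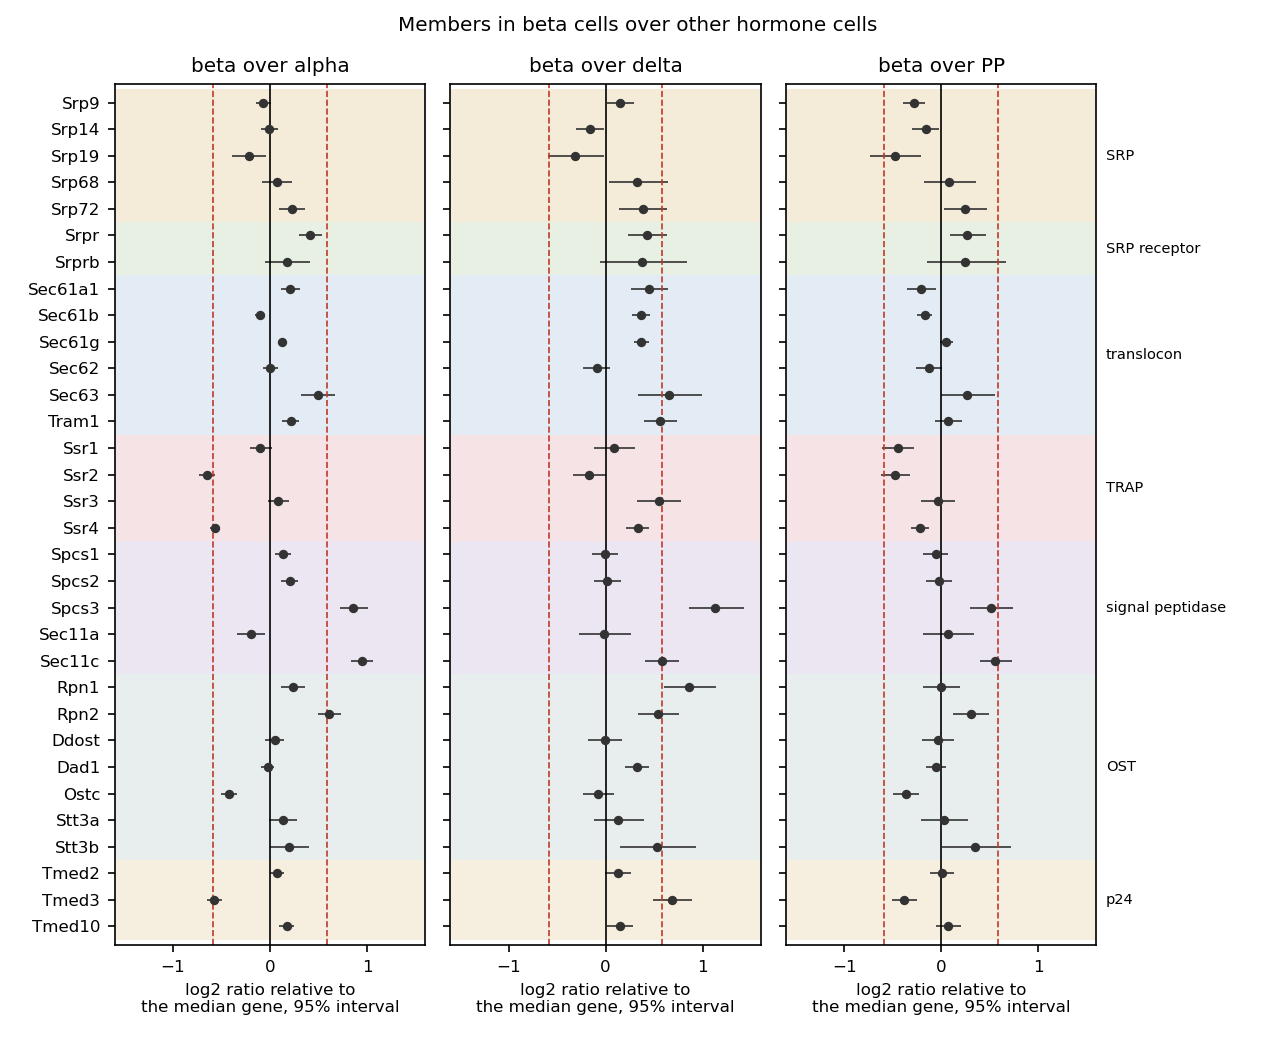
Log2 ratio relative to the median gene for 32 members in beta cells over alpha, delta and PP cells, with 95% intervals for counting error and dashed lines at 1.5-fold. Spcs3 and Sec11c lie farthest right over alpha cells and Ssr2 farthest left.

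Beta cells were then ordered by the share of insulin UMIs and divided into 5 groups (quintiles) of 651 or 652 cells, with median shares of 37.7%, 46.2%, 50.6%, 54.7% and 60.8%. The summed members stood at 9353, 9906, 10281, 10672 and 12120 CPM from the lowest to the highest quintile, higher at each step. The ratio of the top to the bottom quintile was 0.49 (0.47 to 0.50). ER chaperones stood at 12399, 12395, 12670, 12619 and 11699 CPM over the same quintiles, without such a trend. Genes of the nuclear-encoded respiratory chain stood at 30590 CPM in the highest and 21621 in the lowest quintile.

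In the top over the bottom quintile, 11 of 32 members were above the limit, where 10.3% of 6735 genes were, and 0 were below, where 4.01% were. The median member was at 0.42. Relative to the median gene, 17 of 32 members were higher in each next quintile, where 13.0% of genes were, and Ssr1 and Stt3b were lower in each, where 6.92% of genes were. In CPM, 15 of the 17 were higher at each step, all but Srp9 and Tmed2. Among the lists set beside the members, the respiratory chain had 45 of 69 above the limit, ER chaperones 0 of 14 and cytosolic ribosomal proteins 0 of 79.

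Signal peptidase had 4 of 5 genes above the limit (10.3% of all genes), but 1 of 5, Spcs1 at 0.64, when quintiles were taken within deciles of total UMIs (2.40% of all genes). Spcs2 was then at 0.50, Sec11c at 0.45 and Sec11a at 0.41. Spcs1 stood at 279, 338, 369, 419 and 499.7 CPM over the quintiles, a ratio of 0.95 (0.88 to 1.03). Sec11c had a ratio of 0.77, Spcs2 of 0.73 and Sec11a of 0.71, while Spcs3 was level at 199 CPM in the top and 197 in the bottom quintile. Both catalytic subunits were higher alike, since the share of Sec11c in the pair was 77.2%, 77.9%, 77.8%, 76.6% and 77.8% over the quintiles. Spcs3, which had the highest ratio of all members over delta cells, was thus the signal peptidase gene that differed least with insulin share.

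OST was divided. Dad1, a small core subunit, stood at 430, 503, 562, 606 and 779 CPM over the quintiles, the highest ratio of all members at 0.97 (0.91 to 1.03). Ddost, a core subunit, stood at 185, 211, 222, 257 and 330.1 CPM, a ratio of 0.95 (0.86 to 1.04). Rpn2 at 0.58 lay just inside the limit. The catalytic subunits did not follow: Stt3a stood at 115 CPM in the top and 125 in the bottom quintile, a ratio of 0.00. Stt3b stood at 77.3, 70.2, 66.2, 64.7 and 60.5 CPM, the lowest ratio of all members at -0.24 (-0.42 to -0.06). Rpn1 was at -0.08. The share of Stt3a in the catalytic pair was 61.8%, 62.3%, 63.7%, 64.8% and 65.5% over the quintiles, with intervals of 62.8 to 68.2% in the top and 59.4 to 64.1% in the bottom quintile.

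TRAP was divided likewise. Ssr2 stood at 171, 194, 204, 234 and 297 CPM over the quintiles, a ratio of 0.91 (0.81 to 1.01), and Ssr4 at 505, 570.0, 621, 706 and 846 CPM, a ratio of 0.86 (0.80 to 0.92). Ssr1 was at -0.10 and Ssr3, the gamma subunit, at -0.02. Ssr2 was thus lower in beta than in alpha cells, yet higher in beta cells with more insulin RNA.

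Among the remaining members, Tmed3 had a ratio of 0.81, Sec62, a channel partner used by short secretory proteins, 0.74, and Srp14 0.59. Srprb at 0.58 lay just inside the limit. Sec61a1 stood at 242 CPM in the top and 290 in the bottom quintile, a ratio of -0.15 (-0.24 to -0.06), while its partners Sec61b and Sec61g had ratios of 0.52 and 0.42.

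**Figure D3:**
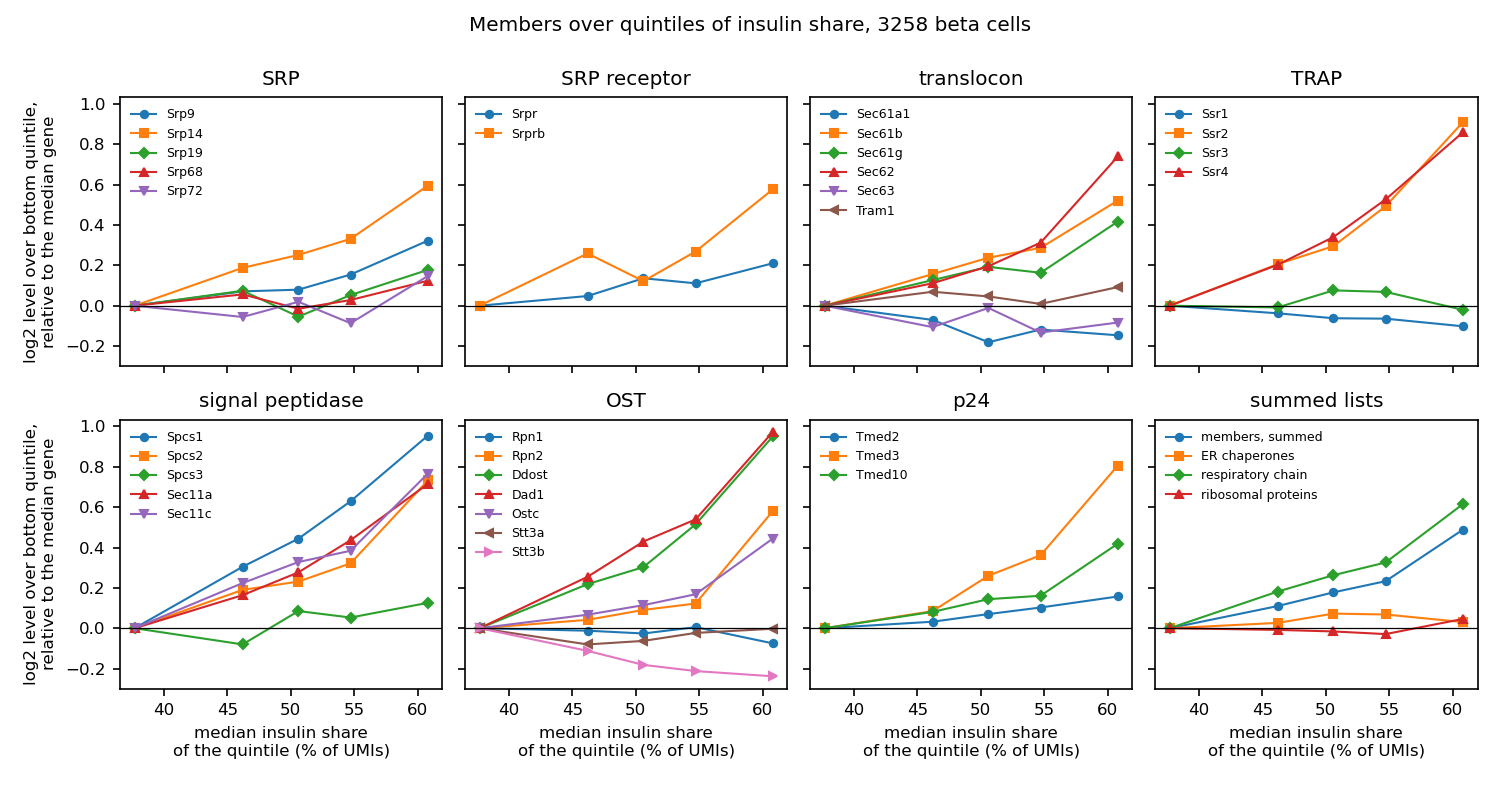
Log2 level over the bottom quintile, relative to the median gene, against the median insulin share of each quintile of 3258 beta cells (% of UMIs), by complex, with summed lists in the last panel. Dad1, Ddost, Spcs1, Ssr2 and Ssr4 end highest, and Stt3b ends lowest.

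Other measures moved with the quintiles. Median total UMIs were 21475, 20838, 22658, 24491 and 31103, median genes detected 3410 in the highest and 3938 in the lowest quintile, and the median mitochondrial share 2.22% and 4.49% of all UMIs. Of non-hormone UMIs, mitochondrial genes took a median of 6.58% in the highest and 7.86% in the lowest quintile. Beta markers summed to 4076 CPM in the top and 3079 in the bottom quintile, and alpha markers to 4584 and 2967. PP markers, the hormone Pyy among them, summed to 1521 CPM in the top and 2595 in the bottom quintile, delta markers to 229 and 283, and acinar markers to 50.4 and 99.0. Gcg, which is not in those sums, took 0.165% of UMIs in the top and 0.346% in the bottom quintile. The part of these measures in the result was not tested. With quintiles taken within deciles of total UMIs, 650 top cells and 658 bottom cells had median totals of 23402 and 23381 UMIs, and summed members of 11347 and 9567 CPM. Then 4 of 32 members (Dad1, Ddost, Spcs1 and Ssr2) were above the limit, where 2.40% of genes were, 0 were below (1.05%), and the summed ratio was 0.30. The number of genes detected still differed there, 3073 in top and 4152 in bottom cells, and its part in the result was not tested.

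Transcript length moved with the ratio as well. By the median length of coding transcripts (GENCODE M21), Spearman's rho with the ratio was -0.48 over 6620 genes and -0.44 over 32 members, all from the same cells. In the shortest tertile of genes 8 of 16 members were above the limit, where 21.7% of genes were. In the middle tertile it was 2 of 8 (7.71% of genes) and in the longest 1 of 8 (1.63%). That median is short for Stt3a, 640 bases, and long for Dad1, 2184 bases, so the longest coding sequence was used as a second measure, chosen after the first had been seen. It is 2115 bases in Stt3a and 339 in Dad1, and gave a rho of -0.51 over 6622 genes and -0.45 over the members. By coding sequence, 9 of 19 members were above the limit in the shortest tertile (20.5% of genes), 2 of 5 in the middle (9.13%) and 0 of 8 in the longest (1.40%). The part of length in the result was not tested.

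**Figure D4:**
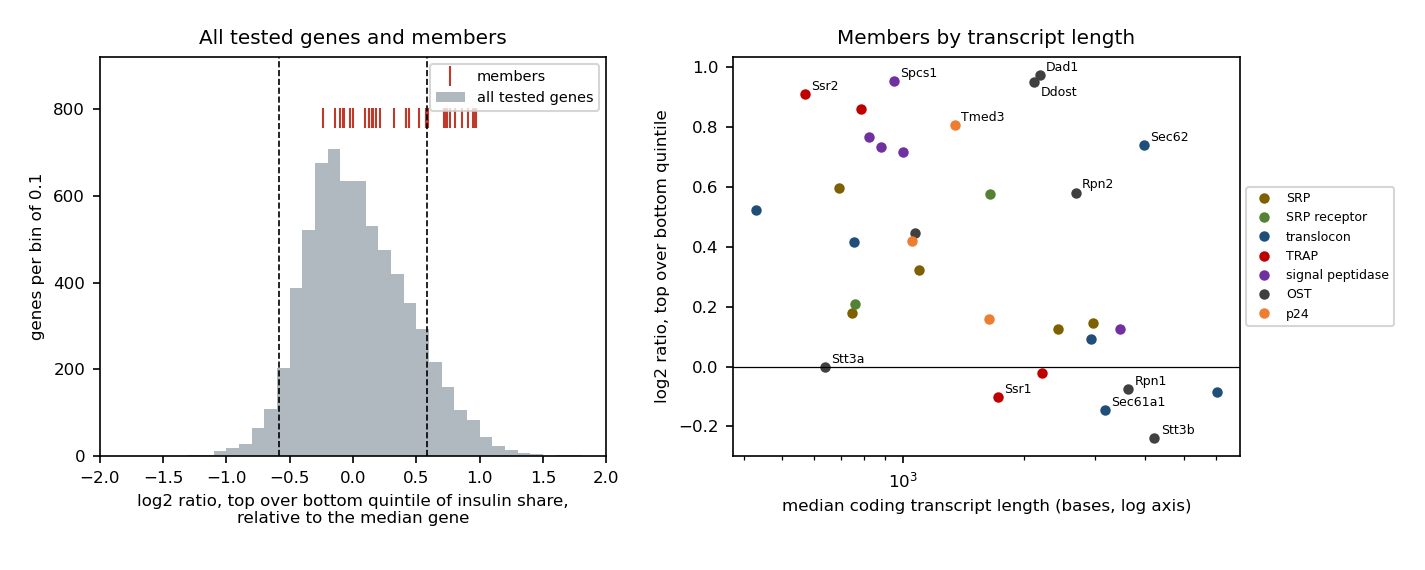
Left, number of genes per bin of the log2 ratio of the top over the bottom quintile of insulin share, with the members as ticks and dashed lines at 1.5-fold. Right, the same ratio of the members against the median length of their coding transcripts (bases, log axis): Sec62 is the 1 gene of the longest tertile above the limit.

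Over the 3258 single beta cells, Spearman's rho between insulin share and the summed members was 0.44, and within deciles of total UMIs it had a median of 0.31 (0.17 to 0.51). By complex it was 0.38 for signal peptidase, 0.35 for OST, 0.31 for TRAP, 0.24 for the translocon, 0.20 for p24, 0.14 for SRP and 0.05 for the SRP receptor. These cells share 1 library, and the complexes differ in UMIs per cell. The rho was -0.03 for ER chaperones and 0.55 for the respiratory chain. The summed members ran from 8050 to 12927 CPM between the 10th and the 90th percentile of beta cells, with a variance 4.21 times that of counting.

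The other hormone cells were divided into tertiles by their own hormone. In alpha cells the members stood at 7684, 8173 and 8496 CPM from the lowest to the highest tertile of Gcg share, a ratio of 0.26 (0.22 to 0.29). In delta cells they stood at 7822, 8903 and 9201 over tertiles of Sst share, a ratio of 0.23 (0.16 to 0.29). In PP cells they stood at 8855, 10141 and 11782 over tertiles of Ppy share, a ratio of 0.39 (0.33 to 0.45). In each of the 3 cell types the summed members were thus higher at each step. In delta cells the intervals of the middle and top tertile overlapped (8595 to 9220 and 8891 to 9519). ER chaperones stood at 6458 CPM in the top and 6052 in the bottom tertile of alpha cells, 6198 and 6480 in delta cells, and 6505 and 6265 in PP cells. The summed respiratory chain had ratios of 0.24 in alpha, 0.18 in delta and 0.17 in PP cells. Genes of the ER membrane complex and tail-anchor insertion had 0.26, 0.23 and 0.33, and ribosomal proteins 0.08, -0.06 and -0.20. Median non-hormone UMIs per cell were 8541 in the top and 14736 in the bottom tertile of PP cells, and their part was not tested.

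Above the limit in alpha cells were Rpn2 at 0.67, Ssr4 at 0.63, and Sec11a and Ddost at 0.62 each, 4 of 32 where 7.07% of genes were, with 0 below (8.53%). In delta cells Sec11a (0.96), Rpn2 (0.68) and Srpr (0.62) were above, where 14.0% of genes were, and Srprb was below on 6 and 20 UMIs in the top and bottom tertile, where 14.8% were. In PP cells 7 were above, where 17.4% of genes were, and 0 below (19.7%): Srprb, Spcs2, Ssr2, Dad1, Ostc, Spcs1 and Tmed2. The counts in delta and PP cells lie near the background. Rpn2 at 72 and 60 UMIs in delta cells shows the depth behind such a ratio, with an interval of 0.16 to 1.20.

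**Figure D5:**
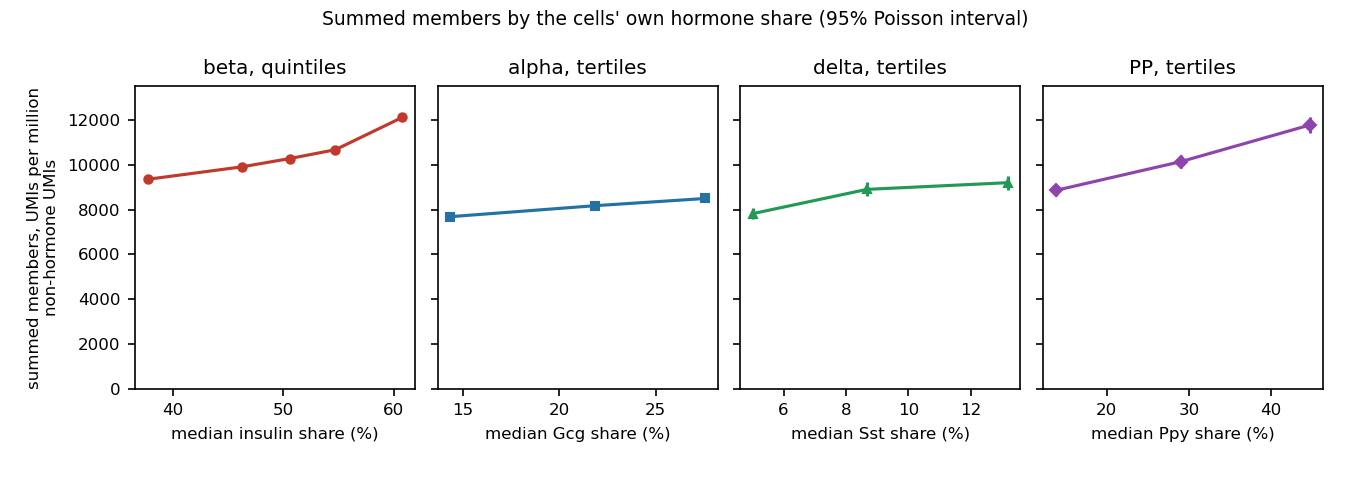
Summed level of the members (CPM of non-hormone UMIs, 95% Poisson intervals) against the median share of the cells' own hormone, in quintiles of beta cells and tertiles of alpha, delta and PP cells. The level is higher at each step in all 4 cell types, with overlapping intervals in the middle and top tertile of delta cells.

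Of the TG matrix, 547 entries over 81 barcodes could be read, with 782 UMIs. They held 5 UMIs of 4 members, or 10288 CPM (3349 to 23845), against 9107 in the WT droplets of at most 200 UMIs. The interval is too wide for a difference to be detectable at this depth, and TG cells were not analysed here.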

How the data were processed

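Each deposited matrix holds raw UMI counts (genes by barcodes), per the file headers. FastQC, Trimmomatic and the build mm10 are named in the submitters' processing notes. Aligner and counter: not given in the sources used here. No filter on barcodes had been applied to the WT matrix (737280 barcodes, 27998 genes, 23027935 entries). The TG copy held 547 whole entries and 1 broken line, and its 220 gene lines equal the start of the WT list.

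Counts were summed per cell group with numpy 2.4.6 and pandas 2.3.3 (Python 3.11.15), intervals came from scipy 1.17.1 and figures from matplotlib 3.10.9. No doublet caller was run; barcodes meeting several hormone limits were set apart. Levels leave out Ins1, Ins2, Iapp, Gcg, Sst, Ppy, Pyy and Ghrl. Within 10% of the beta limit lay 109 barcodes above and 83 below. Cells of 1 library are not replicates, so no p-value was computed. Tested on simulated data with 200 genes changed 2-fold, the ratio rule recovered 100% of them in beta over alpha cells (6206 genes), 96% over delta (6692), 99% over PP (6561) and 99.5% between quintiles (6508). Of unchanged genes it called 0%, 1.65%, 1.02% and 0.0317% in the same order. The planted 2-fold change exceeds the 1.5-fold limit, so these figures do not show how changes near the limit are called. They cannot cover differences between animals either, because each group is 1 library.

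All members may be named, with full values for the 3 highest and 3 lowest per contrast and for the pairs Sec11a and Sec11c, Stt3a and Stt3b; in other lists, the 2 highest and 2 lowest. The members and lists were chosen with earlier results of these data known. Alternatives changed the denominator, the floor, the limits, the weighting, the depth and the free RNA.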

Additional observations from a re-analysis of the deposited data

How the results depend on the processing

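No paired analysis was possible because each group is 1 library, and for the same reason no replicate could be left out. In beta over alpha cells, the 1 member below the limit (15.5% of genes) became 0 with all UMIs as denominator (15.2%). The count was 3 without a floor (24.9%) and 2 when cells took the first group met (15.4%). With equal weight per cell it was 3 (16.0%), and with free RNA taken off 3 (17.7%). In beta over delta cells, the 4 above (18.0% of genes) became 9 with all UMIs (15.3%) and 2 without a floor (33.9%). That count was 7 in cells of at least 10000 UMIs (17.7%) and 8 with free RNA taken off (20.4%). In beta over PP cells, the 0 above (15.9% of genes) became 2 with all UMIs (15.1%). They numbered 1 with a floor of 50 CPM (15.3%) and 1 with limits of 1.5 times the rule (17.7%). With free RNA taken off there were 2 (19.6%). The 0 below (14.5%) became 3 without a floor (25.1%). Between quintiles of insulin share, the 11 above (10.3% of genes) became 4 with quintiles within deciles of total UMIs (2.40%). The summed ratio of 0.49 became 0.62 between the top and bottom decile, 0.36 in the middle tertile of non-hormone UMIs, 0.30 within deciles of total UMIs, 0.46 without the top decile of mitochondrial share and 0.41 in the cells below the median of immediate early genes, the last chosen after seeing the data. The cause was not tested. Of all recomputed values 1050 stayed within their spread or count limit, 166 moved and none changed sign past a limit. Depth limits delta and PP cells most, where single members rest on few UMIs.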

Other observations

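Among genes next to the members in the pathway, those of glycan trimming were higher in beta cells. In beta over alpha cells, where 17.2% of all genes were above 1.5-fold and 15.5% below, 4 of 10 measured genes of this list were above and 0 below, and 10 of 10 were above the median gene, with a median of 0.52. Their summed level was 3609 CPM in beta cells, against 1667 in alpha cells, a ratio of 0.76 relative to the median gene. Over delta cells 6 of 10 were above (18.0% of all genes) and over PP cells 3 of 10 (15.9%). The list shares Calr, Canx and Pdia3 with the ER chaperones. In beta cells these stood at 1698, 507.1 and 659.5 CPM and made up most of the summed level. Uggt1, the folding sensor that adds glucose back to unfolded glycoproteins, was highest at 1.38 and the lectin chaperone Calr next at 1.19, while Pdia3 was at 0.23 and Man1b1, a mannosidase, at 0.03. Of 19 further genes of OST and oligosaccharide assembly, 3 were above and 1 below. Magt1, an oxidoreductase subunit of the Stt3b form of OST, was at 1.19 and Gmppb, which makes GDP-mannose, at 1.07, whereas Dpm1, the catalytic subunit of dolichol-phosphate mannose synthase, was at -0.64 and Dpm2 at -0.31. Of 25 further p24 and coat genes 1 was above and 1 below. Of 14 genes of the ER membrane complex and tail-anchor insertion 0 were above and 0 below. These 3 lists thus passed the limit no more often than all genes did.

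Between the top and bottom quintile of insulin share in beta cells, 5 of 14 genes of the ER membrane complex and tail-anchor insertion were above 1.5-fold, led by Emc2 at 0.95 and Emc9 at 0.86, with Emc1, the largest subunit, lowest at -0.41. Of the OST and oligosaccharide genes 4 of 19 were above, led by the OST subunit Krtcap2 at 0.78 and by Alg5 at 0.74. Of the coat genes 2 of 25 were above, Cope at 1.03 and Sar1b at 0.74, with Sec24b at -0.32 and Sec16a at -0.29. Glycan trimming had 0 of 11 above. No test was made of these counts, and 10.3% of all genes were above the limit.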
